A study of Mus musculus with 10 samples.

Results

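The immunity-related GTPases (IRG proteins) described here are 7 genes, Irgm1, Irgm2, Igtp, Iigp1, Ifi47, Tgtp1 and Tgtp2, chosen by gene symbol from the 36009 rows of a table of estimated counts per gene. Each symbol had 1 row, and all 7 passed the filter on low counts, which left 15767 features. The table holds 10 subcutaneous tumors of WEHI 164, a fibrosarcoma cell line of BALB/c origin, each grown in a separate wild-type female BALB/c mouse aged 8 to 12 weeks. A piece of each tumor was taken when 75% of the mass was resected, before any treatment, and a hydrogel releasing poly(I:C), a synthetic double-stranded RNA, was then placed at the site. The groups name what happened afterwards: 5 tumors were from responders (RS), whose tumors regressed completely, and 5 from non-responders (NR), whose growth was not delayed. No tumor in either group had met the drug when it was sampled, so the comparison asks whether IRG transcripts already differed before treatment. Total estimated counts ran from 16002949 to 31160790 in RS tumors (median 25627675) and from 19863863 to 28276142 in NR tumors (median 22757833). Each tumor piece mixes tumor, stromal and immune cells, so that in these bulk samples fewer cells of a type and less RNA per cell cannot be told apart.

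IRG proteins are GTPases of cell-autonomous immunity that mouse cells make in quantity after interferon gamma, and to a lesser degree after type I interferon. Interferon gamma binds its receptor, which signals through JAK kinases, and interferon regulatory factors such as IRF1 take part in switching on the genes. The family is divided into regulators and effectors: the regulators Irgm1, Irgm2 and Igtp (also called Irgm3) sit on the cell's own membranes and hold the effectors inactive there, while the effectors Iigp1, Ifi47, Tgtp1 and Tgtp2 load onto the vacuoles of intracellular parasites and bacteria, coat them and help to break them. Guanylate binding proteins (GBPs) act on the same vacuoles, and loading of both families needs the machinery that conjugates ATG8 proteins to lipid.

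On GRCm38 the members lie in separate groups. Irgm1 (chr11:48861968-48871683, minus strand), Tgtp1 (chr11:48985327-48994172, minus strand), Tgtp2 (chr11:49057194-49064206, minus strand) and Ifi47 (chr11:49076587-49096974, plus strand) fall within 235 kb of chromosome 11. Igtp (chr11:58199556-58207591) and Irgm2 (chr11:58199618-58222782) are further along the same chromosome on the plus strand, and their annotated gene bodies overlap. Iigp1 is alone on another chromosome. All are protein-coding in GENCODE vM21.

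RefSeq (build GRCm38.p6) gave a window of 300 bases around the gene start, 250 before and 50 after it, for 6 of the members, the exception being Iigp1. These windows were searched on both strands for the letters TTCNNNGAA, the GAS type of element (gamma-activated site) found near many genes that interferon gamma induces, and GAAANNGAAA, the ISRE type bound by interferon-stimulated complexes and interferon regulatory factors. The stretches below are shown because 5 of the 6 windows held an ISRE-type match, against 3.44% of 32851 windows over all genes, and 4 held a GAS-type match, against 8.30%. The ISRE-type share was not particular to the members: of 6 windows of GBP genes, 5 held an ISRE-type match and 2 a GAS-type match. Each stretch is written 5′ to 3′ on the strand of the gene, with the matches in capitals, and ends before the RefSeq gene start. The stretches of Irgm2, Tgtp1 and Irgm1 lie inside the gene bodies given above, whose annotated starts differ from those of RefSeq.
Igtp: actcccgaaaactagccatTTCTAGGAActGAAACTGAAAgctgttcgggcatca
Irgm2: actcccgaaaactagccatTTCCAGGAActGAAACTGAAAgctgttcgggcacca
Tgtp1: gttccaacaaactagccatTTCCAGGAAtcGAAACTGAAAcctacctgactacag
Tgtp2: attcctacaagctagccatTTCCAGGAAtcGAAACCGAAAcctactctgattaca
Irgm1: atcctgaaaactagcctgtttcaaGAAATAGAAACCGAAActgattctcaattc

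The stretches lie at chr11:58199492-58199546 (Igtp), chr11:58214883-58214937 (Irgm2), chr11:48992299-48992353 (Tgtp1), chr11:49064258-49064312 (Tgtp2) and chr11:48871421-48871474 (Irgm1). In Igtp, Irgm2, Tgtp1 and Tgtp2 the GAS-type match came first and the ISRE-type match began 2 bases after it ended, an arrangement (a gap of at most 5 bases) present in 11 windows over all genes. Of the other 7 windows with it, 1 was that of Gm12185, another IRG gene, and 1 that of Bst2, an interferon-induced membrane protein that tethers viruses. No GBP window held this arrangement. Irgm1 had a pair of overlapping ISRE-type matches and no GAS-type match, and the window of Ifi47 held neither set of letters. Aligned on the ISRE-type match, the stretches of Igtp and Irgm2 were identical at 53 of 55 bases and those of Tgtp1 and Tgtp2 at 42 of 55, while those of Irgm1 and Igtp shared 28 of 54. These letters are those of the reference build, and the sequence of the BALB/c tumors themselves was not read. The match of letters is a description of sequence only, and binding was not measured in these tumors.

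**Figure D1:**
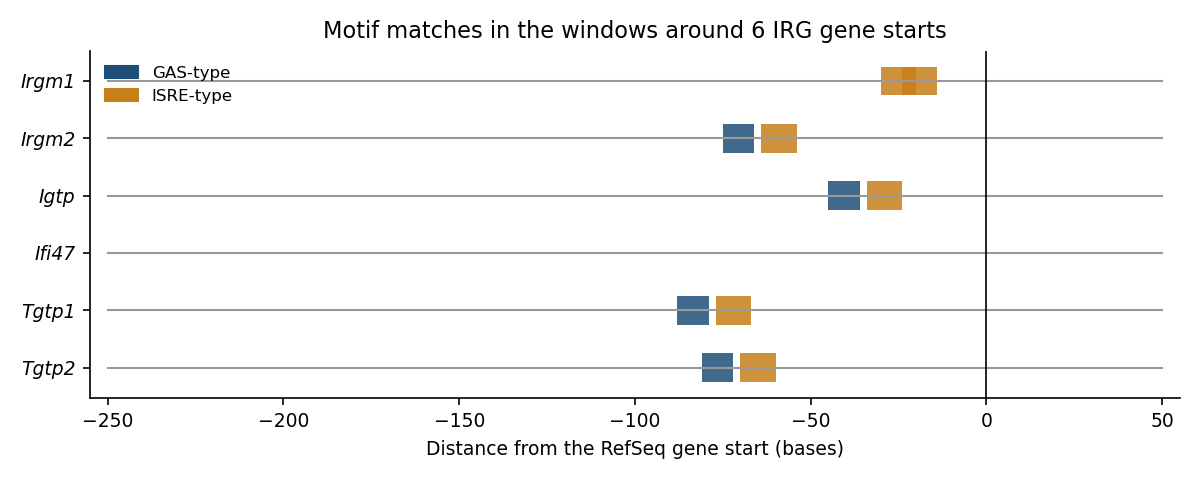
GAS-type (blue) and ISRE-type (orange) letter matches in the windows of 6 IRG genes, by distance in bases from the RefSeq gene start at 0. Igtp, Irgm2, Tgtp1 and Tgtp2 carry the same order with a gap of 2 bases, Irgm1 has overlapping ISRE-type matches only, and the window of Ifi47 has no match.

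All 7 IRG genes were abundant in every tumor, with at least 1738 counts per gene and tumor and at most 17844. The most abundant of 8 fibroblastic markers was Vim, the mesenchymal intermediate filament. It was at 4863 ± 425 CPM (counts scaled to a library of common size, after TMM normalization) in RS tumors and 4665 ± 363 CPM in NR tumors (SD, n = 5 each). Of the 8 markers only Vim had a higher mean in RS, and Col1a1 was at 921 ± 88.5 CPM in RS and 1115 ± 133 CPM in NR tumors. The pieces mix cell types, so these levels cannot check the label fibrosarcoma. Of 7 markers of keratinocytes and epithelium, Krt1 was at 0 in every tumor, Krt5, Krt14 and Epcam stayed below the filter with at most 11 counts, and the most abundant, Krt8, was at 174 ± 21.5 CPM in RS tumors.

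Per kilobase of the longest coding transcript, the regulator Igtp was the most abundant member in RS tumors at 187 ± 26.5 CPM per kb, followed by Irgm1 at 169 ± 19.7 and the effector Iigp1 at 161 ± 21.5 (SD, n = 5). These 3 neighbours in the order differed by no more than the SD of Igtp. The SDs in this paragraph are spreads between tumors, in which the members rose and fell together, so they do not decide the order of genes within a tumor. A lower tier on the same per-length scale held Tgtp1 at 98.0 ± 13.7, Ifi47 at 82.4 ± 9.09 and Irgm2 at 76.5 ± 9.21 CPM per kb, of which Ifi47 and Irgm2 differed by less than their SDs and Tgtp1 stood above both by more than its SD, and Tgtp2 came last at 41.9 ± 4.07 CPM per kb. The order was the same in NR tumors, from 130.2 CPM per kb for Igtp to 33.0 for Tgtp2. The place of Tgtp1 and Tgtp2 is uncertain, because these near-identical copies share most of their reference sequence: 83.2% of the 31-base words of annotated Tgtp1 transcripts also occur in Tgtp2, and 89.2% of those of Tgtp2 occur in Tgtp1. For Igtp 15.9% of words occur in Irgm2, and for Irgm1, Iigp1 and Ifi47 at least 93.1% of words occur in no other gene. Ifi47 lies inside the annotated span of Olfr56 on the same strand, which holds 3.32% of its words.

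The mean of every regulator was higher in RS than in NR tumors, and none of the 3 passed the test after adjustment. Irgm1, which regulates the family on Golgi and lysosomal membranes and is linked to autophagy, was at 416, 394, 325, 427 and 346 CPM in RS tumors 5, 9, 10, 11 and 12. In NR tumors 1, 2, 3, 6 and 7 it was at 292, 221, 396, 327 and 233 CPM. The groups overlapped, with NR 3 and NR 6 inside the range of the RS tumors and NR 2 and NR 7 below every other tumor. The difference was 0.38 on the log2 scale (SE 0.16), a 1.30-fold higher level in RS, with p = 0.633 after adjustment over all features (edgeR's quasi-likelihood test) and p = 0.0635 in an exact two-sided permutation test, whose smallest possible value is 0.00794.

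Irgm2, a regulator found on the Golgi apparatus, was at 297, 266, 227, 306 and 253 CPM in RS tumors 5, 9, 10, 11 and 12. In NR tumors 1, 2, 3, 6 and 7 it was at 209.9, 137, 304, 214 and 161 CPM. Only NR 3 reached the RS range, where it stood above all but RS 11. The log2 difference was 0.40 (SE 0.20, adjusted p = 0.662, exact permutation p = 0.0714).

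Igtp, the regulator of the endoplasmic reticulum and lipid droplets, was at 388, 415, 298, 434 and 356 CPM in the RS tumors, in the same order. The NR tumors had 256, 165, 427, 279 and 189.8 CPM. As with Irgm2, 4 NR tumors were below every RS tumor and NR 3 was above all RS tumors except RS 11. The log2 difference was 0.52 (SE 0.25), 1.44-fold, with an adjusted p = 0.651 and an exact permutation p = 0.0635.

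Among the effectors the means were again higher in RS tumors without passing the test. Iigp1 (chr18:60376027-60392634, plus strand) encodes the effector whose loading onto the parasite vacuole is best described. It was at 464, 565, 424, 580.4 and 481 CPM in RS tumors 5, 9, 10, 11 and 12. NR tumors 1, 2, 3, 6 and 7 had 355, 227, 559, 389 and 238 CPM, so that NR 3 exceeded 3 of the RS tumors and the other NR tumors exceeded none. The log2 difference was 0.51 (SE 0.25, adjusted p = 0.651), and the exact permutation p = 0.0556 was the lowest among the members.

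Ifi47, an effector also known as Irgd, was at 157, 147, 123, 165 and 139.9 CPM in RS tumors 5, 9, 10, 11 and 12. In the NR tumors it was at 127, 84.4, 154, 125 and 93.0 CPM. Its groups overlapped more than those of the other members, with NR 1, NR 3 and NR 6 all above RS 10. Its log2 difference of 0.33 (SE 0.16, adjusted p = 0.646, exact permutation p = 0.0873) was the smallest of the 7.

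Tgtp1, an effector first described in T cells, was at 285, 304, 223, 319 and 253 CPM in the RS tumors and at 186, 126, 316, 204 and 132 CPM in the NR tumors, in the same orders. Its log2 difference was 0.52 (SE 0.25, adjusted p = 0.651, exact permutation p = 0.0635). Tgtp2, its near-identical copy, was at 128, 119, 104, 129 and 108 CPM in the RS tumors and at 95.0, 62.1, 140.3, 93.3 and 73.1 CPM in the NR tumors. For Tgtp2 the highest of all 10 values belonged to NR 3, and the log2 difference was 0.35 (SE 0.20, adjusted p = 0.701, exact permutation p = 0.103). Since the counting could split reads between the copies, they were also summed to 1 feature, for which the log2 difference was 0.47 (SE 0.23, adjusted p = 0.661). The ratio of Tgtp1 to Tgtp2 was 2.34 ± 0.163 in RS and 2.04 ± 0.180 in NR tumors (SD, n = 5), with ranges of 2.15 to 2.54 and 1.80 to 2.25 that overlapped. The neighbours Igtp and Irgm2 had a ratio of 1.40 ± 0.102 in RS and 1.26 ± 0.0926 in NR tumors, also with overlapping ranges.

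**Figure D2:**
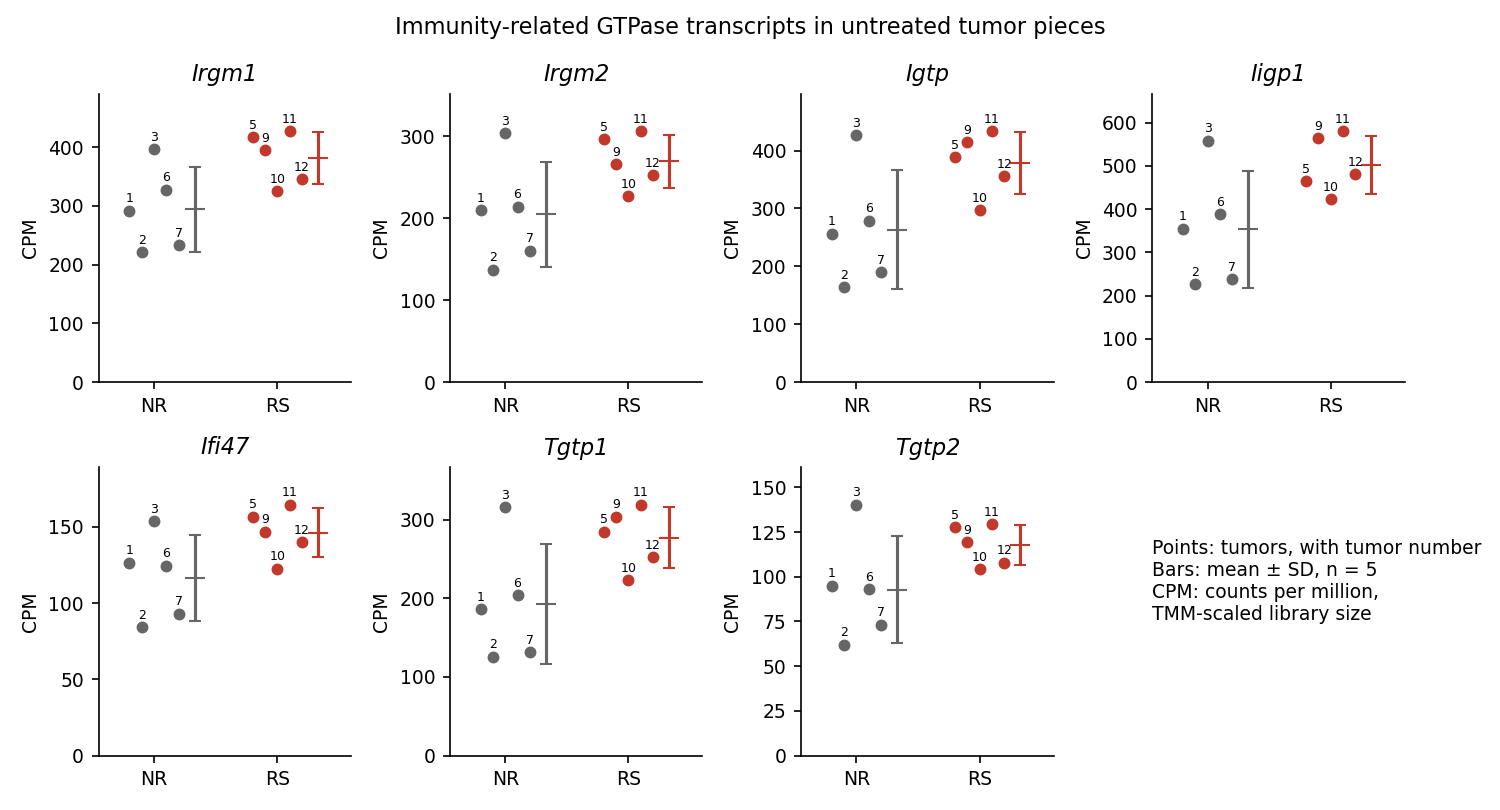
CPM of each IRG gene (linear axis from 0) in every tumor, NR in grey and RS in red, with the tumor number above each point and bars for the mean ± SD (n = 5). In all 7 panels NR 3 lies within or above the range of the RS tumors, and NR 2 and NR 7 are the lowest tumors.

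The count of members called was 0 of 7 at an adjusted p below 0.05, as it was for all features tested, of which 0% were called (edgeR), with 609 features higher and 606 lower in RS at an unadjusted p below 0.05. At that unadjusted level 1 member, Irgm1, was higher in RS, beside 3.86% of all features, and none was lower, beside 3.84%. The median log2 difference of the 7 members was 0.40, with a range of 0.33 to 0.52, and the median of all features was -0.0036. For no member was every RS tumor above every NR tumor, which held for 0.336% of all features. The spread was unequal: across the members the coefficient of variation was between 24.1% and 39.8% in NR tumors and between 9.71% and 14.2% in RS tumors.

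Each tumor was left out in turn, and NR 3, named here after its values were seen, moved the members most. Without it the log2 differences ran from 0.45 to 0.78 and adjusted p-values from edgeR from 0.351 to 0.425. Irgm2, Igtp, Iigp1, Tgtp1 and Tgtp2 had the other 4 NR tumors below every RS tumor already, so that leaving out NR 3 ends their overlap by construction and is no independent support for a difference. The tool also moved the unadjusted count, to 7 members with limma voom (4.41% of all features higher in RS) and 4 with DESeq2 (4.36%), and none passed after adjustment with either. That count was 0 without a filter on low counts (3.18%) or with a score of leukocyte markers as a covariate (1.24%). It was also 0 without NR 1, NR 2, NR 7, RS 5, RS 9 or RS 11 (2.36% to 6.54%).

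The 7 genes moved as a block across the tumors. Their mean level, in SDs from the mean of 10 tumors, was highest in RS 11 at 1.04, followed by NR 3 at 0.96, RS 5 at 0.78 and RS 9 at 0.75. RS 12 was at 0.35, RS 10 at -0.034, NR 6 at -0.21 and NR 1 at -0.38, and NR 7 at -1.44 and NR 2 at -1.81 stood well below the rest. The summed level of the members ran from 1022 CPM in NR 2 to 2360.3 CPM in RS 11. Between pairs of members Pearson's r of log2(CPM + 1) over the 10 tumors was 0.960 to 0.997 (21 pairs), and it was 0.942 to 0.995 on deviations from the group means. These values are given as a description, since the genes share libraries and, for the Tgtp1 and Tgtp2 pair and the Igtp and Irgm2 pair, sequence.

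Of the 10 features whose pattern was most like the mean of the members, 5 were GBPs. Of 15760 other features, 72 (0.457%) had an r above 0.9 over the 10 tumors. The 10 highest were Gbp10 (r = 0.993), Gbp3, Gbp4, Gm12185, Gm4951, Gbp2b, Gbp5, Rmdn3, Apol6 (r = 0.980) and a row without a gene name. Gbp2b, Gbp3, Gbp4, Gbp5 and Gbp10 are GBPs, Gm12185 and Gm4951 are further IRG genes, Apol6 is of the apolipoprotein L family and Rmdn3 tethers mitochondria to the endoplasmic reticulum. On deviations from the group means their r stayed between 0.971 and 0.990. Gm12185 overlaps Tgtp1 on the same strand and shares 7.22% of the 31-base words of Tgtp1, and Gm4951 shares 4.63% of those of Iigp1, so the values of neither are independent of the members.

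**Figure D3:**
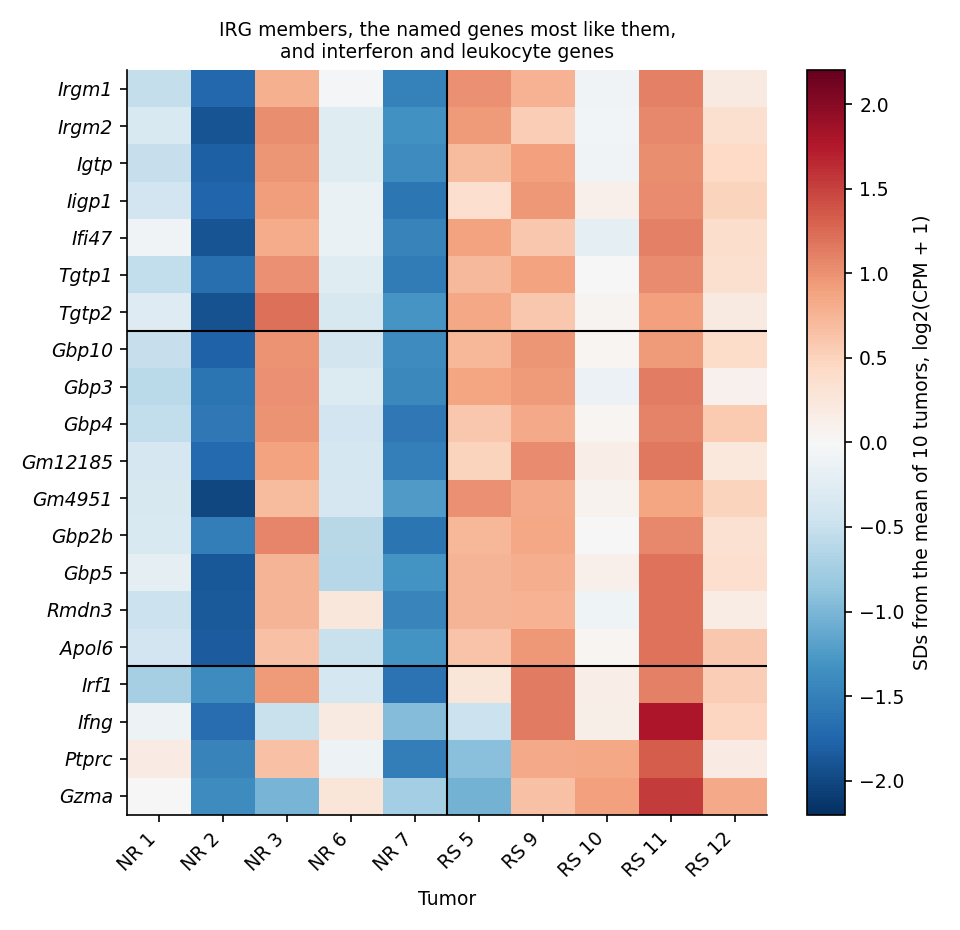
Level of each gene in each tumor, as SDs of log2(CPM + 1) from the mean of 10 tumors (red high, blue low), for the 7 members, the 9 named genes most like them, and Irf1, Ifng, Ptprc and Gzma. Members and GBPs are high in NR 3 and RS 5, where Ifng and Gzma are below their mean. RS 11 is highest in Ifng and in every member but Tgtp2, and NR 2 is lowest in Ifng and in every member.

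The interferon gamma gene and the pan-leukocyte gene Ptprc were each set against the 7 members over the 10 tumors, with p-values adjusted over all 21 relations computed. Ifng, which encodes the ligand and is made by NK cells and T cells, had few reads, with 20 to 121 counts per tumor. It was at 1.48, 3.06, 1.97, 3.94 and 2.30 CPM in RS tumors 5, 9, 10, 11 and 12 and at 1.76, 0.715, 1.46, 2.03 and 1.13 CPM in NR tumors 1, 2, 3, 6 and 7. RS 5 and NR 3, both high in IRG transcripts, were below NR 1 and NR 6 in Ifng. RS 11 was the highest and NR 2 the lowest tumor both in Ifng and in the mean level of the members. The log2 difference of Ifng was 0.86 (SE 0.30, adjusted p = 0.624, exact permutation p = 0.0556). Against the members r was 0.647 to 0.781 (adjusted permutation p from 0.0170 to 0.0424) and rho 0.442 to 0.733 (adjusted permutation p from 0.0476 to 0.205). Without RS 11 and NR 2, the tumors farthest from the median of Ifng, r was 0.277 to 0.595 with exact permutation p-values of 0.120 to 0.509. Leaving out these tumors narrows the range of Ifng and so tends to lower r. The drop therefore cannot show how far the relation rested on them. On deviations from the group means r was 0.455 to 0.632 (permutation p from 0.0476 to 0.185).

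Ptprc, which encodes the leukocyte surface phosphatase CD45, was at 118 ± 14.5 CPM in RS and 104 ± 14.8 CPM in NR tumors (SD, n = 5). Its r with the members was 0.709 to 0.835 (adjusted permutation p from 0.00824 to 0.0251) and its rho 0.527 to 0.745 (adjusted permutation p from 0.0453 to 0.127). Without NR 7 and NR 2, the tumors farthest from the median of Ptprc, r was 0.122 to 0.491, with exact permutation p-values of 0.217 to 0.777. The range of Ptprc is narrower without these low tumors, so here too the drop cannot show how far the relation rested on them. On deviations from the group means r was 0.598 to 0.781 (permutation p from 0.00563 to 0.0685).

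**Figure D4:**
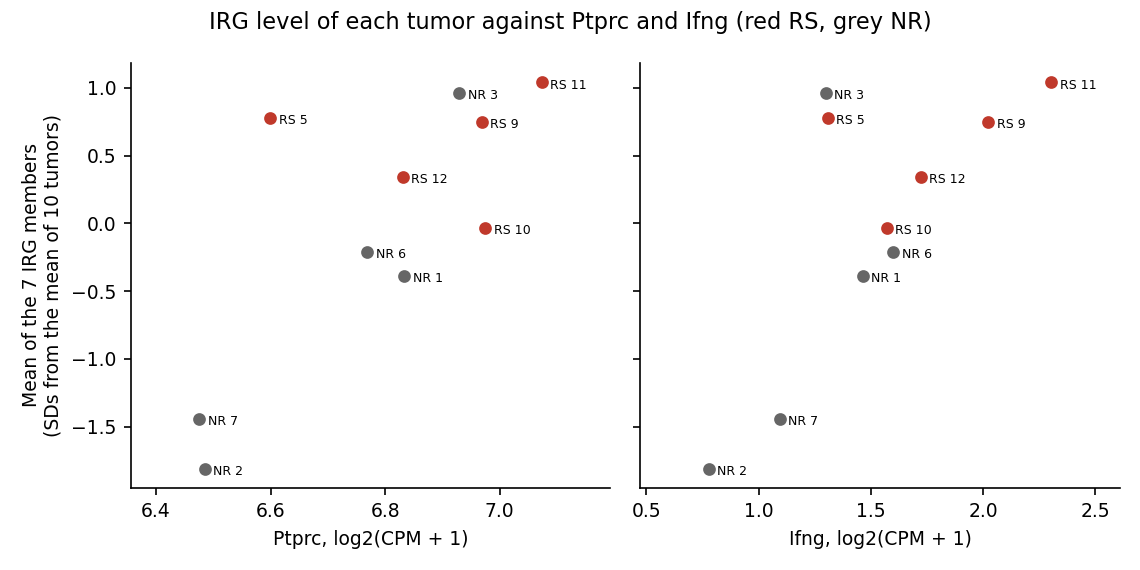
Mean level of the 7 IRG members in each tumor (SDs from the mean of 10 tumors) against log2(CPM + 1) of Ptprc and Ifng, RS in red and NR in grey. RS 5 lies high in IRG level at a low level of Ptprc, and RS 5 and NR 3 do so at a level of Ifng below NR 1 and NR 6.

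Of the 8 other IRG genes in the table, 7 passed the filter, and 6 of these had a higher mean in RS. At an unadjusted p below 0.05, 2 were higher in RS and 1 was lower, none after adjustment, and the median log2 difference was 0.22. With single tumors left out the median was 0.11 (without NR 6) to 0.39 (without NR 3), and the count of higher genes was 3 without NR 3, 2 without RS 10 or RS 12 and 1 without any other tumor. With a score of leukocyte markers as a covariate the count of higher genes was 0, and it was 3 with limma voom and 1 without a filter. Gm4951 was at 35.9 ± 3.35 CPM in RS and 26.3 ± 6.84 CPM in NR tumors, a log2 difference of 0.46 (SE 0.16, adjusted p = 0.624). Gm12185 differed by 0.55 (SE 0.23) and F830016B08Rik by 0.47 (SE 0.27). Irgq, a divergent member of the family that lacks a working GTPase site, was at 30.1 ± 2.66 CPM in RS and 34.2 ± 1.91 CPM in NR tumors, a log2 difference of -0.18 (SE 0.066, adjusted p = 0.624). The remaining 3, Gm5431, 9930111J21Rik1 and 9930111J21Rik2, had group means that differed by less than the SD of the NR tumors, and Irgc1, the testis gene of the family, had at most 2 counts in any tumor.

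The GBPs, which load onto the same vacuoles, followed the members. All 11 had a higher mean in RS, with a median log2 difference of 0.52, 2 of them (Gbp5 and Gbp8) at an unadjusted p below 0.05 and 0 after adjustment. That count of 2 was 11 without NR 3 (4.66% of all features higher in RS), 5 without RS 10 (3.23%), 1 without NR 2, NR 6 or RS 5, and 0 without NR 7, RS 9 or RS 11. It was 11 with limma voom (4.41%), 7 with DESeq2 (4.36%) and 0 with a score of leukocyte markers as a covariate (1.24%). For Gbp2, Gbp2b, Gbp3, Gbp4, Gbp5, Gbp7, Gbp10 and Gbp11 the other 4 NR tumors were already below every RS tumor. Leaving out NR 3 ends their overlap by construction and is no independent support for a difference. Counts without NR 3 in the other lists share the limit that this tumor was named after its values were seen. Gbp5 was at 90.9, 92.3, 74.9, 104 and 80.7 CPM in RS tumors 5, 9, 10, 11 and 12 and at 68.0, 41.0, 90.9, 59.9 and 48.3 CPM in NR tumors 1, 2, 3, 6 and 7, again with NR 3 alone among the NR tumors inside the RS range. Its log2 difference was 0.53 (SE 0.20, adjusted p = 0.624), and those of Gbp8, Gbp7 and Gbp10 were 0.52 (SE 0.21), 0.43 (SE 0.20) and 0.66 (SE 0.30). Of the other large GTPases that interferon induces, Mx1 and Mx2, which respond mainly to type I interferon, had log2 differences of 0.011 (SE 0.13) and 0.072 (SE 0.11), and Gvin1, with 0 to 36 counts per tumor, had one of 0.026 (SE 0.93). Whether these differed from the members was not tested.

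Upstream of the members, the interferon receptors had small differences. Of 5 ligand and receptor genes past the filter, 1, Ifng, was at an unadjusted p below 0.05, the median log2 difference was 0.10, and Ifnar2, Ifnar1 and Ifngr2 were at 0.16 (SE 0.084), 0.086 (SE 0.049) and 0.10 (SE 0.069). The count was 4 without RS 5, 2 without NR 6 and 0 with the leukocyte covariate. The median was 0.081 to 0.17 with single tumors left out and 0.0058 with that covariate. Ifnb1, a type I interferon, had at most 4 counts in any tumor. Of 13 genes of interferon signal transduction, 3 were at an unadjusted p below 0.05, all higher in RS, and none after adjustment, with a median of 0.15. The count was 6 without NR 3, with limma voom or with DESeq2, and 1 without NR 2, NR 7, RS 9 or RS 11 or with the leukocyte covariate. The 3 were Irf8, a myeloid transcription factor, at 0.45 (SE 0.15), Irf1, which binds the genes directly, at 0.41 (SE 0.16), and Irf9, the DNA-binding part of the type I interferon complex, at 0.18 (SE 0.082).

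Downstream of the members' synthesis stands the machinery that directs IRG proteins to vacuoles. Of 12 genes of ATG8 conjugation, 1 was at an unadjusted p below 0.05, and the median log2 difference was 0.0095; the count was 0 without NR 1, NR 6, RS 9 or RS 12. That gene, Atg12, the ubiquitin-like partner of Atg5, was at 32.2 ± 1.51 CPM in RS and 29.1 ± 1.98 CPM in NR tumors. Atg5 was at 34.8 ± 1.68 and 36.5 ± 1.22 CPM. Of 5 genes for ubiquitin ligases and adaptors that act on vacuoles, 1 was at that level, the giant ligase Rnf213 at 337 ± 36.2 CPM in RS and 291 ± 36.3 CPM in NR tumors, and the median was 0.12. The count was 3 without NR 3 or with limma voom, 2 without RS 11, without a filter or with DESeq2, and 0 with the leukocyte covariate or without NR 2, NR 6, NR 7, RS 5 or RS 9. The ligases Trim21 and Traf6 had log2 differences of 0.22 (SE 0.11) and 0.12 (SE 0.056), and the E2 enzyme Ube2n one of -0.056 (SE 0.046).

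**Figure D5:**
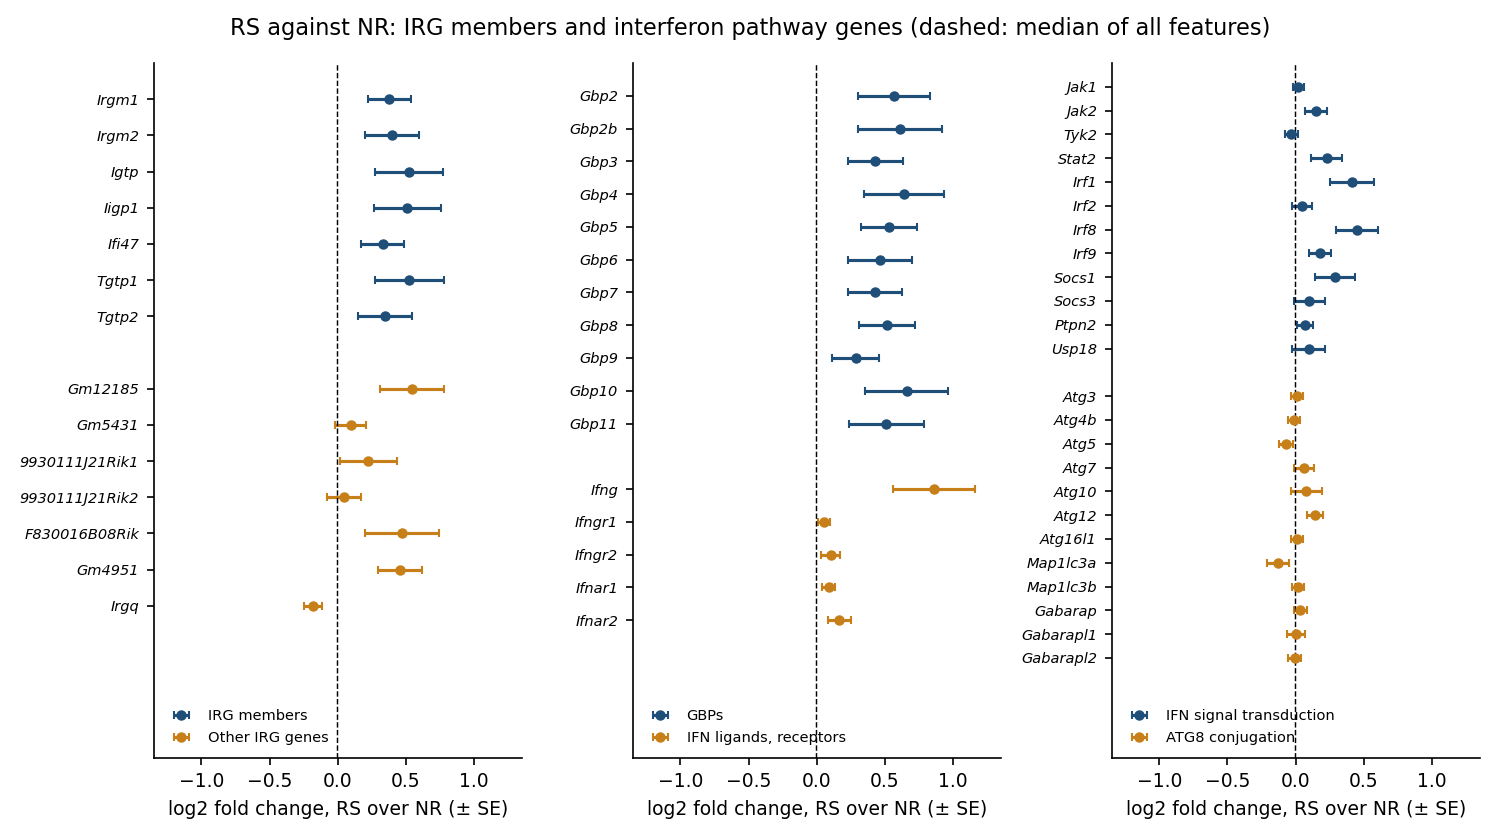
Log2 fold change, RS over NR, with its SE from edgeR for the members, other IRG genes, GBPs, interferon ligands and receptors, interferon signal transduction and ATG8 conjugation, with a dashed line at the median of all features. Members and GBPs lie between 0.29 and 0.66, and ATG8 conjugation genes between -0.13 and 0.14, and none passed an adjusted p of 0.05.

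Markers of immune cells were examined beside the members. All 5 leukocyte markers had a higher mean in RS, 1 at an unadjusted p below 0.05, with a median log2 difference of 0.19, and none was at 0 in any tumor. The count was 3 without RS 5, 2 without NR 1 or NR 3 or with limma voom or the DESeq2 Wald test, and 0 without NR 2, NR 7, RS 9 or RS 11, and the median was 0.14 to 0.26 with single tumors left out. Their summed level was 404, 479.9, 512, 571 and 453 CPM in RS tumors 5, 9, 10, 11 and 12 and 489, 379, 463, 446 and 357 CPM in NR tumors 1, 2, 3, 6 and 7, and the most abundant was Laptm5, a lysosomal protein of blood cells. With a leukocyte marker score as a covariate the log2 differences of the members were 0.19 to 0.32 and 0 members had an unadjusted p below 0.05 (1.24% of all features higher in RS). RS 5 was high in IRG transcripts with a lower summed level of these markers than 3 NR tumors. RS 11 was the highest tumor in both, and NR 7 and NR 2 were the lowest tumors in both.

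NK cell markers had larger differences: 5 of 7 were higher in RS at an unadjusted p below 0.05, none after adjustment, with a median log2 difference of 0.88. The count was 1 without RS 11, 2 without NR 2 or NR 7 and 3 without NR 3, RS 10 or RS 12, and with the leukocyte covariate it was 0 and the median 0.18. With single tumors left out the count reached 7 at most, and the median of these markers was 0.64 to 1.10. Their summed level was 24.3, 76.6, 90.5, 151 and 83.5 CPM in RS tumors 5, 9, 10, 11 and 12 and 48.2, 18.0, 28.9, 53.9 and 27.7 CPM in NR tumors 1, 2, 3, 6 and 7. The most abundant, Gzma, a granule protease, had a log2 difference of 1.82 (SE 0.70), and no NK marker was at 0 in every tumor. Both RS 5 and NR 3 were among the 4 lowest tumors for these markers and among the 3 highest in the mean level of the members. In the other direction, RS 11 was the highest and NR 2 the lowest tumor in both. T cell markers had a median of 0.24 and macrophage markers one of 0.14, with 0 genes at an unadjusted p below 0.05 in either list, and their most abundant genes, Trbc2 and C1qa, had log2 differences of 0.054 (SE 0.084) and 0.14 (SE 0.093). Without RS 5 the counts were 4 and 2 and without NR 1 they were 2 and 3, and the macrophage count was 1 without NR 3, without RS 12 or without a filter. With single tumors left out the medians were 0.11 to 0.44 for T cells and 0.066 to 0.18 for macrophages, and with the leukocyte covariate they were -0.23 and -0.034. B cell and dendritic cell markers had medians of 0.13 and 0.057 and 0 genes at that level, and the B cell median fell below 0 without RS 5 or NR 6 (-0.041 and -0.032). With single tumors left out these 2 medians were -0.041 to 0.29 and 0.0097 to 0.13, and at most 1 B cell marker was lower in RS at that level. Among the other tissues, 3 of 6 endothelial, 1 of 6 adipocyte and 2 of 8 fibroblastic markers were lower in RS at an unadjusted p below 0.05 (medians -0.20, -0.49 and -0.18), and 0 of 8 skeletal muscle and 0 of 3 epithelial markers past the filter were (medians -0.27 and 0.012). With single tumors left out these counts were 1 to 3, 0 to 1, 2 to 4, 0 to 4 and 0 in the order named: 1 endothelial marker without NR 6, 0 adipocyte markers without NR 1, NR 6 or NR 7, 4 fibroblastic markers without RS 5 or NR 7, and 4 skeletal muscle markers without RS 11 and 2 without NR 3 or RS 5. In the same order the medians were -0.26 to -0.12, -0.98 to -0.12, -0.20 to -0.089, -0.57 to -0.16 and -0.082 to 0.053. The part of these cell types in the levels of the IRG genes was not tested.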

How the data were processed

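RNA from 10 untreated WEHI 164 tumor pieces (poly-A RNA, 150-base paired-end reads) was measured. The authors checked reads with FastQC v0.11.3, ran Kallisto v0.43.0, mapped transcripts to genes by tximport with mm10 (GRCm38), and deposited estimated counts per gene, neither depth- nor length-normalized. The annotation release is not given in the sources used here. Here rows of 1 name were summed, counts were rounded, and a feature was tested if its CPM exceeded 0.366 in 3 or more tumors. Groups came from the response label. RS and NR were compared with edgeR 4.0.16 (quasi-likelihood, TMM, Benjamini-Hochberg), in R 4.3.3, and exact permutation tests of log2(CPM + 1). Pieces came from separate mice, and every pair of tumors differed by more than sampling noise (chi-square per gene at least 5.18). Named genes were the members, Ifng, Irf1 and Ptprc, up to 4 genes of smallest p in each pathway list, the most abundant of each marker list, and the 10 features most like the members. Correlations used 100000 resamples with adjustment over 21 relations. The result of 1 gene picked by that rule is not reported here. Alternatives were other normalizations, filters, tests, a pseudocount of 0.5, a leukocyte covariate and leaving out tumors. In simulated data for this comparison, 84% of genes changed 2-fold and 98% of those changed 4-fold were called over 15578 genes, with 6 false calls. No smaller change was simulated, so these shares do not apply to the members, which differed 1.26-fold to 1.44-fold. Members and lists were chosen with earlier results of these data known. Python 3.11.15 drew the figures. The common biological coefficient of variation over all features was 10.4%. Counting error is small for the members, but their coefficient of variation between NR tumors was 24.1% to 39.8%.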

Additional observations from a re-analysis of the deposited data

Results flagged for a closer look

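In 92 groups of 5 tumors (46 named genes, each in RS and NR), the value of 1 tumor stood far from the other 4 in 2 cases, and chance alone gives about 4.6. Neither concerned a member. Mx1, a gene of the type I interferon response, was at 5.32 in RS 5 on the log2(CPM + 1) scale, while the other RS tumors were between 4.79 and 4.92. Vim was at 12.46 in RS 11, while the other RS tumors were between 12.17 and 12.20. No cause was tested.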

How the results depend on the processing

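In all 135 combinations of a member, or of Tgtp1 and Tgtp2 summed, with an alternative the log2 difference stayed above 0, from 0.19 to 0.78, and none passed an adjusted p of 0.05 (lowest 0.351). Over all features, 1 passed with the DESeq2 Wald test and 0 to 4 with single tumors left out (4 without RS 5), against 0 in the edgeR fit. The count of members at an unadjusted p below 0.05, 1 in that fit, was 4 with the DESeq2 Wald test, 7 with limma voom, 0 without a filter on low counts, 0 with the leukocyte covariate and 0 to 7 with single tumors left out (7 without NR 3, 2 without RS 10). The share of all features higher in RS at that level, 3.86% in that fit, was 4.36%, 4.41%, 3.18%, 1.24%, 4.66% and 3.23% in the same order, and 6.54% without RS 5, where 0 members were. By the exact permutation test 0 members were below 0.05, against 2 with CPM on library size alone and 0 to 7 with single tumors left out (7 without NR 3, 1 without RS 10), and the share of all features that passed it higher in RS was 2.90%, 3.06%, 3.60% and 2.26% in that order. The count of members without overlap was 0 to 5 with single tumors left out (5 without NR 3, whose removal ends the overlap of those 5 by construction; 1.21% of all features, 190 of 15767, against 0.336% with all tumors). Of the 21 relations, all at an adjusted p below 0.05, 8 to 21 were so with single tumors left out: 8 without NR 2, 9 without NR 7 and 9 without RS 11. The cause of these changes was not tested. No paired analysis was possible because the tumor numbers are unique across the groups. With 5 tumors a group the 95% interval of the log2 difference was -0.054 to 1.10 for Igtp and 0.011 to 0.75 for Irgm1. The members had at least 1738 counts in every tumor, whereas Ifng rests on 20 to 121.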
